A study of Mus musculus with 14 samples.

Results

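The genes described are those of the cytosolic ribosome's proteins, chosen by symbol. A gene was a member if its symbol had the form Rpl or Rps with a number, or was Rplp0, Rplp1, Rplp2 or Rpsa, and if it had at least 10 counts in at least 2 of the 14 libraries. Of 85 symbols of this form, 84 passed. These were 84 of the 25124 genes in the table, 51 of the large and 33 of the small subunit. Rpl10l, known from testis, had 0 counts in every library and was left out. No measured difference between groups entered this rule, but the members were chosen with earlier results of these data known.

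The libraries came from T cells sorted out of subcutaneous AE17-OVA tumours, a mouse mesothelioma line that carries the model antigen ovalbumin. The hosts were female C57BL/6 mice of 8 to 12 weeks, and every group, the isotype groups included, carried the genotype labelled GATIR Foxp3Cre-rfp Gata3Cre-yfp. On day 10 mice were given antibody intraperitoneally, either MIH5, which binds PD-L1, at 200 µg, or the isotype control 2A3, for which the labels state no separate dose, and cells were taken on day 13. CD4 T cells gave 2 isotype and 3 treated libraries, regulatory T cells (Tregs) without PD-1 gave 2 and 2, and Tregs with PD-1 gave 2 and 3 (PD-1- and PD-1+ in the figures). Cells were sorted on PD-1, CD4, CD25 and the RFP reporter, and libraries were made by Smart-seq2, a full-length cDNA method for small cell numbers. The sources used here do not say how many animals stand behind a library, so a p-value refers to these libraries and not to animals. The main test, by edgeR, takes the spread of a gene from all 6 groups and in part from other genes. Its p-values and SE are therefore not those of a gene's own compared libraries. Over all genes tested the common coefficient of variation between libraries of a group was 1.22.

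The libraries held 10638848 to 15030804 counts and 8027 to 14535 genes with a count. The fewest genes were found in the 4 PD-1-negative Treg libraries, with 8027 to 8801. Levels are CPM, a gene's counts relative to the library's total after TMM scaling, unless stated. Pdcd1, which encodes PD-1, lay at 21.7 to 46.5 CPM in PD-1-negative Tregs and at 85.6 to 246 CPM in PD-1-positive Tregs. Foxp3, the defining gene of Tregs, lay at 114 to 198 CPM in PD-1-negative Tregs, but its 15.9 to 156 CPM in PD-1-positive Tregs overlapped the 16.3 to 55 CPM of CD4 T cells. Counts of Y-linked genes stood at 208, 250 and 285 CPM in 1 treated library of each population (replicate 3 of CD4 T cells, replicate 2 of PD-1-negative Tregs and replicate 3 of PD-1-positive Tregs), although the labels give female mice. The other 11 libraries held at most 0.0849 CPM. Medians without those 3 libraries stand beside the treatment, interaction and population results.

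The ribosome joins a small subunit, which reads the mRNA, to a large subunit, which forms the peptide bond. Most of its proteins are made in equal numbers. The mRNAs of ribosomal proteins share a 5′ terminal oligopyrimidine tract, a C followed by a run of pyrimidines at the cap. Through it the kinase mTORC1 controls their translation. Ribosome production is known to rise in T cells that leave rest and start to divide, and the level of these mRNAs is often read as a sign of a cell's growth state.

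Start site windows of 5 members are shown, because each carries a motif counted below and because 2 of them belong to the paralogs described further on. The sequences are RefSeq's for GRCm38.p6, the same assembly as mm10. Each runs 5′ to 3′ on the gene's strand, from 60 bases before the start listed in the table of promoters through the 30 bases from that start on. Capitals mark TCTTT, the pyrimidine run, in Rpl5, Rpl35 and Rps6. They mark TATAAA in Rpl22l1 and CCGGAAG, the core of an ETS-family site, in Rps27l. The windows lie at chr5:107900468-107900557 on the plus strand for Rpl5, chr2:39005102-39005191 on the minus strand for Rpl35, chr4:86857338-86857427 on the minus strand for Rps6, chr3:28805448-28805537 on the plus strand for Rpl22l1 and chr9:66946026-66946115 on the plus strand for Rps27l, for which the table lists 2 starts. The more upstream of these 2 is shown, and the span of the gene begins 1462 bases further upstream.
Rpl5: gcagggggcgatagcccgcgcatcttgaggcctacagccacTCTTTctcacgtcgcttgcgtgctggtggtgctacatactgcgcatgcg
Rpl35: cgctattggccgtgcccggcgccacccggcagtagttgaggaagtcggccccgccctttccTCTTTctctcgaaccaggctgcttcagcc
Rps6: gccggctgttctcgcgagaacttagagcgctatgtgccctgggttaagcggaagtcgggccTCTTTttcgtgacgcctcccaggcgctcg
Rpl22l1: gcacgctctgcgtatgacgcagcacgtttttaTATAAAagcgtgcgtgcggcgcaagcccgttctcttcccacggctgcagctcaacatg
Rps27l: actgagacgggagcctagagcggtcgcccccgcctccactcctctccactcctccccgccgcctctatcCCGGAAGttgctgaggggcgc

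Counting the start base as 1, the run TCTTT began at base 2 in Rps6 and in Rpl35. In Rpl5 it began 19 bases before the start listed in the table of promoters, which lies 20 bases inside the gene's span, and so at base 2 of that span. Promoter sequences were matched for 63 of the 84 members. TCTTT, read on the gene's strand, stood in the 90-base window of 18 of these 63 (28.6%), against 12.6% of the 27025 genes in the table of promoters. CCGGAAG on either strand stood in the full 300-base promoter of 26 (41.3%), against 9.93% of all genes. GGGCGG on either strand, the core of an Sp1 box, stood in 38 (60.3%), against 38.2%, and TATAAA on either strand in 8 (12.7%), against 15.7%. None of these motifs contains another. The matches describe the starts listed in that table only, and binding was not measured.

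The members differed widely in level. On the length-corrected RPKM scale, 80 of the 84 had a mean of 15 or more over the 14 libraries, from 15.5 in Rps15a to 1064 in Rps27, with a median of 156. The other 4, Rpl39l, Rps4l, Rpl32l and Rpl3l, had means of 4.07, 1.60, 0.803 and 0.433 RPKM. The highest large subunit members were Rpl35 with 955 ± 366 RPKM, Rpl4 with 842 ± 156 and Rpl32 with 545 ± 182 (SD, n = 14). Among small subunit members they were Rps27 with 1064 ± 390 RPKM, Rps14 with 835 ± 196 and Rps19 with 738 ± 255 (SD, n = 14). The ranges of mean ± SD of Rps27, Rpl35, Rpl4 and Rps14 overlap, so their order is not settled, and these 4 with Rps19 and Rpl32 were among the first 7 in each of the 3 populations. The lowest small subunit members were Rps4l, Rps15a and Rps20, the last at 21.6 RPKM, and the lowest of the large subunit were Rpl3l, Rpl32l and Rpl39l.

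Rps27 and Rpl34 have copies with nearly the same counts, and reads may be shared with them. The gene Rps27rt held 0.962 to 0.975 times the count of Rps27 in every library, and Rpl34-ps1 held 0.851 to 0.940 times that of Rpl34. The sources used here do not say how reads with several matches were counted, so the levels of both genes are uncertain.

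Within a group, libraries differed by an SD of 0.0982 to 0.670 on the log2(CPM + 1) scale over the 80 higher members, with a median of 0.276. Rpl7, Rpl8 and Rpl4 were the most even. Rpl22l1, Rps27a and Rpl10a varied most. Members were more abundant than most genes. Their median log2 CPM lay at 6.51 to 7.51 in the 14 libraries, against 1.63 to 4.57 for all genes tested, so a difference of a given size is measured more finely in a typical member than in a typical gene.

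All members together took 1.05% to 2.23% of a library's counts. The summed share in CD4 T cells was 1.78% and 2.12% in the isotype libraries and 1.5%, 1.18% and 1.31% in the treated ones. In PD-1-positive Tregs it was 2.08% and 1.90% under isotype and 1.21%, 1.05% and 1.21% under treatment. In both populations every treated library lay below every isotype library. PD-1-negative Tregs had 2.23% and 1.80% under isotype and 1.48% and 1.83% under treatment, and these overlap. The treated mean was 0.681 times the isotype mean in CD4 T cells, 0.823 times in PD-1-negative Tregs and 0.581 times in PD-1-positive Tregs. In bulk RNA, fewer cells with a high level and a lower level in each cell cannot be told apart.

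Both subunits showed this. Large subunit members took 1.14% ± 0.0692 of counts in PD-1-positive Tregs under isotype (SD, n = 2) and 0.675% ± 0.0330 under treatment (SD, n = 3). Small subunit members took 0.848% ± 0.0628 (SD, n = 2) and 0.480% ± 0.0601 (SD, n = 3). The large subunit share in CD4 T cells was 1.15% ± 0.109 (SD, n = 2) against 0.804% ± 0.103 (SD, n = 3), and the small subunit share 0.801% ± 0.130 against 0.526% ± 0.0564. The small to large ratio of counts stayed between 0.642 and 0.750 in the 14 libraries. Its means were 0.693 and 0.656 for CD4 T cells, 0.713 and 0.652 for PD-1-negative Tregs and 0.743 and 0.710 in PD-1-positive Tregs, isotype first each time, and the isotype and treated ranges overlapped in CD4 T cells and PD-1-positive Tregs but not in PD-1-negative Tregs.

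**Figure D1:**
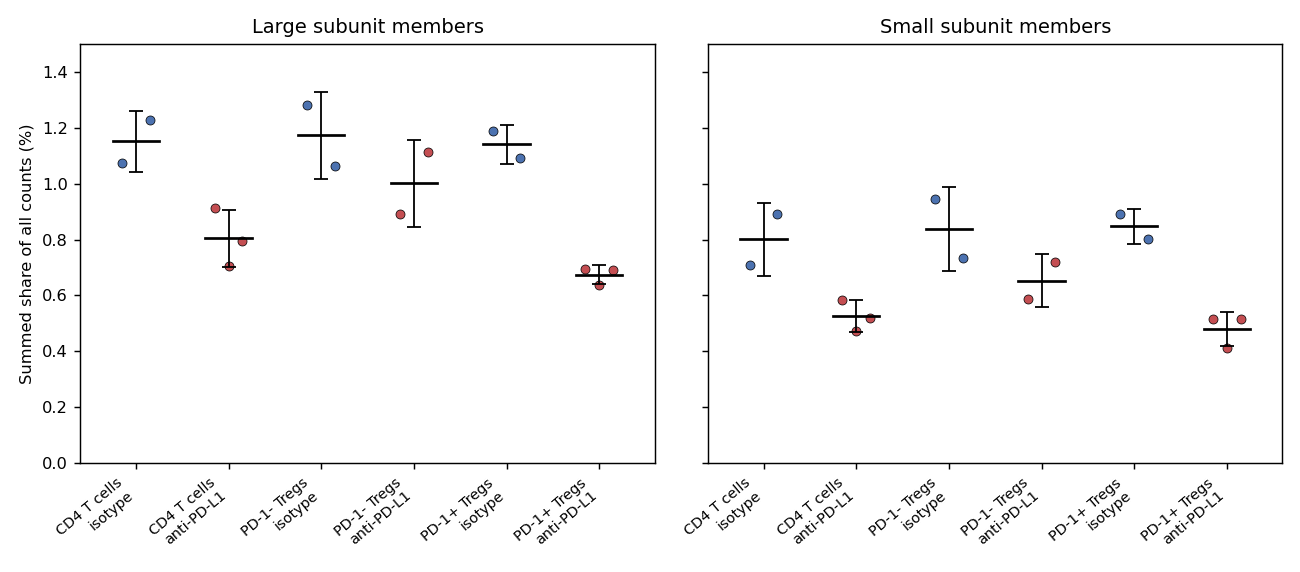
Summed share of all counts (%) of the 51 large subunit members (left) and the 33 small subunit members (right), 1 point per library, with the group mean (bar) and SD (whisker); blue is isotype and red anti-PD-L1. Treated libraries lie below isotype libraries without overlap in CD4 T cells and PD-1-positive Tregs, and for the small subunit also in PD-1-negative Tregs.

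Treatment of CD4 T cells went with lower estimates for nearly the whole family. The log2 change, anti-PD-L1 minus isotype, was negative for 82 of 84 members, with a median of -0.44, which is 1.35-fold lower, against -0.01 for all 13434 genes tested. The median was -0.39 for the large subunit (50 of 51 lower) and -0.49 for the small (32 of 33 lower). No member passed edgeR's quasi-likelihood test at an adjusted p of 0.05, which 0.00744% of all genes passed (1 gene). At an unadjusted p below 0.05, 13 members (15.5%) were lower and 0 higher, against 0.484% of all genes lower. In 66 members (78.6%) every treated library lay below every isotype library, against 15.5% of all genes. The summed share of the members gave the same order, so the members do not count as independent replicates. DESeq2 called 1 member lower, Rpl5, and 0.0670% of all genes, and limma-voom called 0 and 0.00%. Leaving out isotype replicate 2 took the median from -0.44 to -0.29, and leaving out isotype replicate 1 took it to -0.61. Without the library with Y-linked counts it was -0.45.

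In PD-1-positive Tregs the estimates were lower still. They were negative for 83 members, and Rpl3l had no count in this population. The median was -0.73, or 1.66-fold lower, with -0.71 for the large and -0.75 for the small subunit, against 0.00 for all genes. Again 0 members passed edgeR's test, with 0.0149% of all genes called (2 genes). At an unadjusted p below 0.05, 35 members (41.7%) were lower and 0 higher, against 5.22% of all genes lower. In 71 members (84.5%) the treated libraries all lay below the isotype libraries, against 11.5% of all genes. DESeq2 called 14 members lower and 2.11% of all genes. Among them were Rpl13, Rpl21, Rpl30, Rplp2, Rps19 and Rps26. Limma-voom called 1 member lower and 0.901% of all genes. The median stayed between -0.63 and -0.81 when any 1 library was left out, and was -0.82 without the libraries with Y-linked counts.

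PD-1-negative Tregs were less even. Here 72 members had lower and 11 higher estimates, and Rps4l had no count. The median was -0.42, or 1.34-fold lower, with -0.39 for the large and -0.48 for the small subunit, against 0.00 for all genes. edgeR called 0 members and 2.66% of all genes. At an unadjusted p below 0.05, 20 members (23.8%) were lower and 1 was higher, against 10.6% of all genes lower. All treated libraries lay below all isotype libraries in 38 members (45.2%), against 14.0% of all genes. DESeq2 called 12 members lower and 10.4% of all genes lower. It called 1 member higher. The share of all genes higher is not given here for edgeR or DESeq2, so neither count of higher members is read. Limma-voom called 0 members lower and 2.80% of all genes. The median rested on single libraries, at -0.26 without isotype replicate 1 and -0.62 without treated replicate 2, which is the library with Y-linked counts. Each of these fits left 1 library in an arm, so its calls are not read.

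In each population 2 or 3 treated libraries are set against 2 isotype libraries. The members' summed share fell in the same order in CD4 T cells and PD-1-positive Tregs, so counts of members are not counts of independent results. The background of all genes was not matched to the members in level. Treated libraries lay below isotype libraries without overlap in 59 members in both CD4 T cells and PD-1-positive Tregs, as they did in 3.16% of all genes tested. In 29 of those members they did so in PD-1-negative Tregs as well, against 0.878% of all genes. These 29 hold 15 large subunit genes that include Rpl23a, Rpl35, Rpl38 and the stalk protein gene Rplp1, and 14 of the small subunit that include Rps6, Rps14, Rps24 and Rps27l. The members with overlap in CD4 T cells were 17, among them Rplp0, Rpl4, Rpl10, Rps2, Rps4x and Rpsa. In PD-1-positive Tregs there were 13, among them Rpl3, Rps3, Rpl11 and Rps4x.

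**Figure D2:**
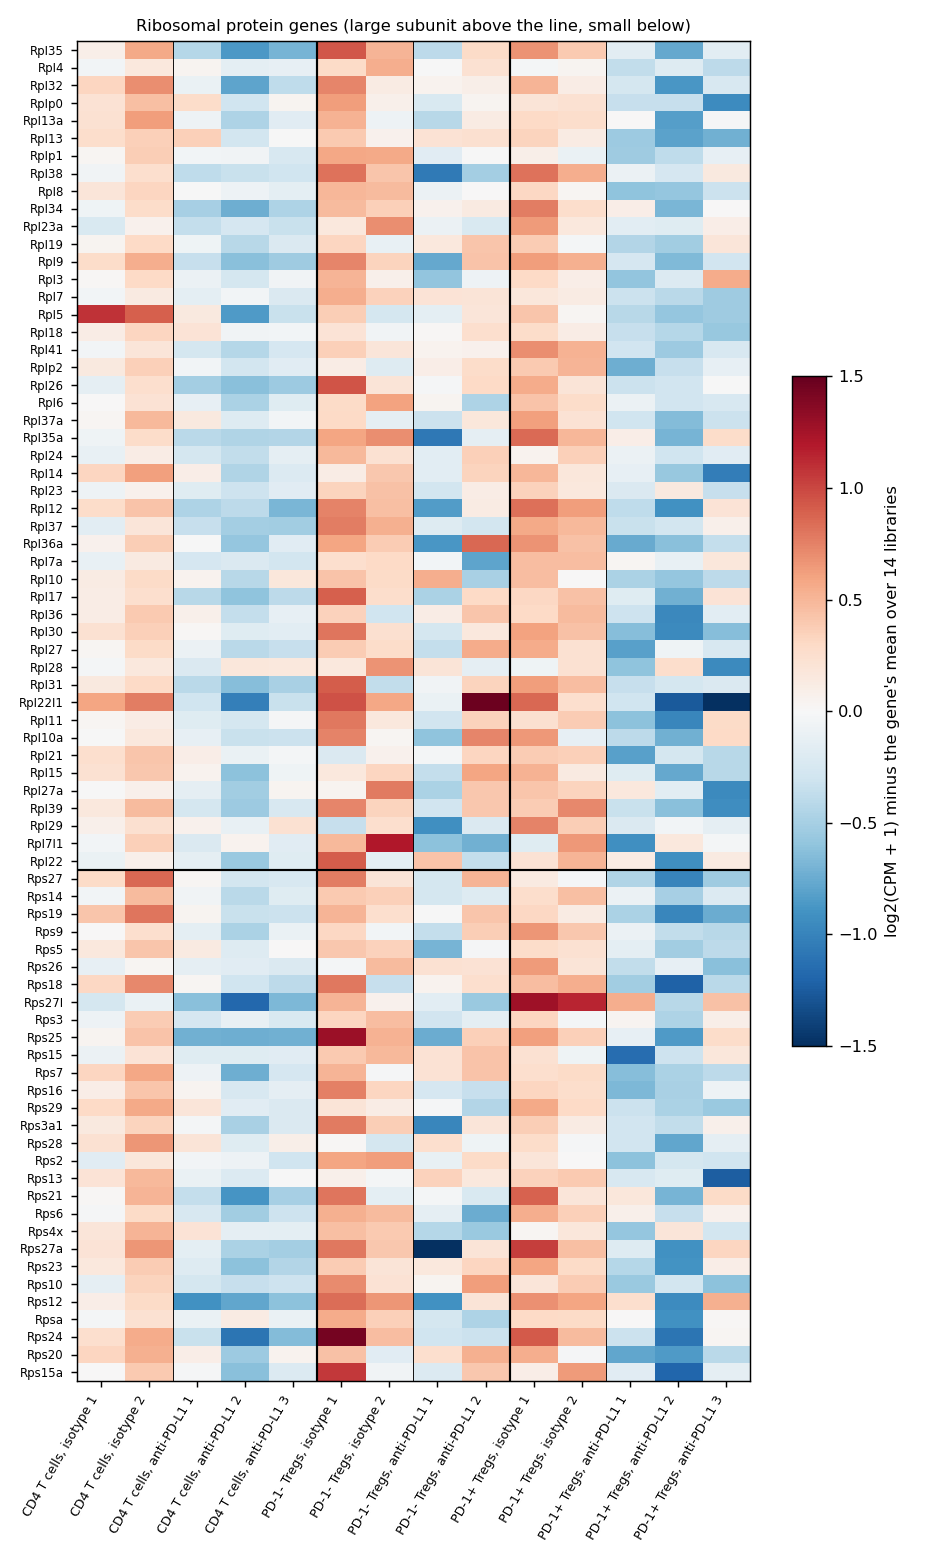
Level of 76 members in the 14 libraries as log2(CPM + 1) minus the gene's mean over all libraries (colour, red above and blue below), large subunit above the line and small below, each in order of mean RPKM; the 4 members with a mean under 5 RPKM are left out, as are 4 others. Isotype columns are mostly red and treated columns mostly blue in CD4 T cells and PD-1-positive Tregs, while Rps27l and Rpl22l1 stand out from their neighbours.

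**Figure D3:**
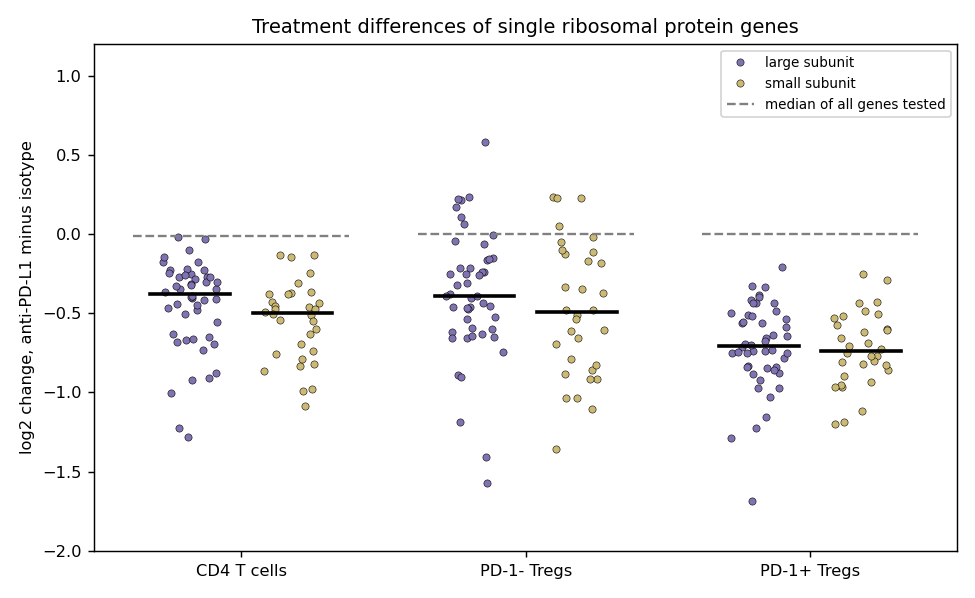
Log2 change (anti-PD-L1 minus isotype, edgeR) of each of the 80 members with a mean of at least 5 RPKM, 1 point per gene, by population and subunit; black bars are medians of the points and dashed lines the median of all 13434 genes tested. All 80 points of CD4 T cells and all 80 of PD-1-positive Tregs lie below 0, and 69 of 80 in PD-1-negative Tregs.

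Whether the treatment difference itself differed between populations was tested by interaction terms, and edgeR called 0 members in any of the 3. The difference in PD-1-negative Tregs minus that in PD-1-positive Tregs had a member median of 0.29. Here 0 members were called against 1.46% of all genes, 4 had an unadjusted p below 0.05 (all genes 16.4%), DESeq2 called 4 (16.1%) and limma-voom 0 (3.04%). The difference in PD-1-negative Tregs minus that in CD4 T cells had a median of 0.01, with 0 called (0.975%), 3 at an unadjusted p below 0.05 (14.3%), 2 by DESeq2 (13.4%) and 0 by limma-voom (2.29%). The difference in PD-1-positive Tregs minus that in CD4 T cells had a median of -0.25, with 0 called (0.00%), 1 at an unadjusted p below 0.05 (3.50%), 0 by DESeq2 (2.04%) and 0 by limma-voom (0.0447%). The share of members was below that of all genes by each of these counts, except that edgeR called neither a member nor any other gene in the last interaction. The 3 terms share libraries pairwise. Single libraries moved these medians. The first ran from 0.14 without treated replicate 2 of PD-1-negative Tregs to 0.57 without isotype replicate 1 of PD-1-negative Tregs. The second ran from -0.17 to 0.26, without treated replicate 2 and treated replicate 1 of PD-1-negative Tregs, and was -0.10 without isotype replicate 2 of CD4 T cells. The last was -0.12 and -0.44 without isotype replicate 1 and 2 of CD4 T cells. Without the 3 libraries with Y-linked counts the medians were 0.18, -0.14 and -0.32 in the same order, so the second changed sign.

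Among small subunit members, Rps6, the substrate of S6 kinase and the usual readout of mTORC1 activity at the protein level, followed the family. Its level was 183 and 226 CPM in isotype libraries and 157, 129 and 150 under treatment in CD4 T cells. PD-1-negative Tregs had 269 and 258 CPM in isotype libraries and 169 and 111 under treatment, and PD-1-positive Tregs had 271 and 238 against 196, 146 and 195. No treated library reached an isotype library in any population. The log2 changes were -0.49 ± 0.28, -0.91 ± 0.31 and -0.51 ± 0.28 (SE, in the order CD4 T cells, PD-1-negative Tregs, PD-1-positive Tregs), with edgeR adjusted p of 1, 0.140 and 0.670.

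Rps19, a gene mutated in Diamond-Blackfan anaemia, had 507 and 663 CPM in isotype libraries and 391, 300 and 303 under treatment in CD4 T cells. In PD-1-positive Tregs it had 470 and 413 CPM in isotype libraries and 274, 193 and 226 under treatment. The groups were apart in both, with log2 changes of -0.82 ± 0.23 (edgeR adjusted p = 1) and -0.94 ± 0.23 (edgeR adjusted p = 0.522). In PD-1-negative Tregs its 540 and 453 CPM in isotype libraries and 377 and 507 under treatment overlapped.

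Rps24, another gene of that disease, had the lowest estimates of the small subunit in CD4 T cells and PD-1-negative Tregs. It stood at 115 and 143 CPM in isotype libraries and 76.6, 44.8 and 61.6 under treatment in CD4 T cells, and at 265 and 134 against 78.7 and 77.2 in PD-1-negative Tregs. PD-1-positive Tregs had 184 and 135 CPM in isotype libraries and 77.5, 44.8 and 98.8 under treatment. Each treated library lay below each isotype library. The log2 changes were -1.08 ± 0.45, -1.36 ± 0.51 and -1.12 ± 0.45 (SE), with edgeR adjusted p of 1, 0.174 and 0.596.

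Rps3, which lines the mRNA entry channel, and Rpsa, also known as the laminin receptor, had lower estimates in PD-1-negative Tregs than in the other populations. Rps3 had log2 changes of -0.37 ± 0.21, -0.61 ± 0.23 and -0.25 ± 0.21 in CD4 T cells, PD-1-negative Tregs and PD-1-positive Tregs, the last with overlap. Rpsa had -0.13 ± 0.35 with overlap in CD4 T cells, -0.83 ± 0.39 in PD-1-negative Tregs and -0.53 ± 0.35 in PD-1-positive Tregs. Rps4x, the X-linked copy of the S4 protein gene, had -0.38 ± 0.34, -0.92 ± 0.38 and -0.29 ± 0.34, with overlap in the first and the last. Rps20 had a higher estimate in PD-1-negative Tregs, 0.23 ± 0.51, where its libraries overlapped, and that estimate became -0.06 without isotype replicate 2.

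In the large subunit, Rpl5 and Rpl11 form with 5S rRNA the particle that binds Mdm2. The 2 genes behaved apart in CD4 T cells. Rpl5 stood at 861 and 758 CPM in isotype libraries and at 450, 225 and 322 under treatment. The treated libraries lay far below, with a log2 change of -1.28 ± 0.28 and an edgeR adjusted p of 0.584, the lowest adjusted p of any member in this comparison. DESeq2 gave -1.28 ± 0.32 with adjusted p = 0.0185, and over all alternatives the change ran from -1.59 to -1.07. Rpl11 had 107 and 113 CPM in isotype libraries and 92.1, 86.6 and 103 under treatment, a log2 change of -0.23 ± 0.44. In PD-1-positive Tregs Rpl5 stood at 540 and 414 CPM in isotype libraries and 303, 270 and 280 under treatment (-0.75 ± 0.28, edgeR adjusted p = 0.596). In PD-1-negative Tregs its 525 and 337 CPM and its 366 and 461 CPM overlapped (-0.06 ± 0.32). The interaction between PD-1-negative Tregs and CD4 T cells for Rpl5 was 1.22 ± 0.43, with an edgeR adjusted p of 0.232 and a DESeq2 adjusted p of 0.0458. The gene spans chr5:107900508-107909005.

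Rpl35 and Rpl4, whose proteins sit at and in the peptide exit tunnel, are both abundant and differed in size of change. Rpl35 stood at 494 and 688 CPM in isotype libraries and at 345, 255 and 285 under treatment in CD4 T cells. In PD-1-positive Tregs it had 743 and 608 CPM in isotype libraries and 415, 273 and 415 under treatment. Its log2 changes were -1.0 ± 0.27, -0.75 ± 0.31 and -0.88 ± 0.27 in CD4 T cells, PD-1-negative Tregs and PD-1-positive Tregs, and the groups were apart in all 3. Rpl4 had 1327 and 1524 CPM in isotype libraries and 1400, 1227 and 1248 under treatment in CD4 T cells, which overlap, and log2 changes of -0.14 ± 0.15, -0.31 ± 0.16 and -0.33 ± 0.15. Rpl32 had -0.92 ± 0.29, -0.39 ± 0.32 and -0.75 ± 0.29, apart in all 3.

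The stalk, which recruits elongation factors, is built of Rplp0, Rplp1 and Rplp2. Rplp0 had log2 changes of -0.31 ± 0.24, -0.47 ± 0.27 and -0.73 ± 0.24 in CD4 T cells, PD-1-negative Tregs and PD-1-positive Tregs, with overlap in the first. Rplp1 had -0.32 ± 0.26, -0.66 ± 0.29 and -0.34 ± 0.26, apart in all 3. Rplp2 had -0.42 ± 0.40 in CD4 T cells, -0.84 ± 0.40 in PD-1-positive Tregs, apart in both, and 0.22 ± 0.44 with overlap in PD-1-negative Tregs. Rpl10, needed for the last step of large subunit maturation, had -0.25 ± 0.44, -0.24 ± 0.48 and -0.74 ± 0.44, with overlap in the first 2.

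Rpl38, known for its role in the translation of Hox mRNAs, and Rpl7l1, a nucleolar relative of Rpl7, had the lowest adjusted p of any member in PD-1-negative Tregs. Rpl38 stood at 213 and 161 CPM in isotype libraries and at 57.1 and 84.1 under treatment, a log2 change of -1.40 ± 0.37 with an edgeR adjusted p of 0.0683. It passed with DESeq2 (adjusted p = 8.05e-05). With any 1 library left out its log2 change stayed between -1.73 and -1.16. Leaving out a library of PD-1-negative Tregs left 1 in its arm, so calls of those fits are not read. Rpl7l1 stood at 162 and 266 CPM in isotype libraries and at 74.6 and 69.2 under treatment, a log2 change of -1.57 ± 0.47 with an edgeR adjusted p of 0.0971. In CD4 T cells and PD-1-positive Tregs the 2 genes had -0.45 ± 0.33 and -0.75 ± 0.33 (Rpl38) and -0.28 ± 0.42 and -0.49 ± 0.42 (Rpl7l1). In PD-1-negative Tregs Rpl21 had a higher estimate, 0.23 ± 0.34, with overlap, and a lower one in PD-1-positive Tregs, -0.85 ± 0.30.

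In PD-1-positive Tregs the lowest estimates were those of Rpl22l1, Rpl30 and Rpl39, and the ones nearest to 0 those of Rpl3, Rps3 and Rps4x. Rpl30 stood at 91.4 and 80.9 CPM in isotype libraries and at 37.8, 30.2 and 38 under treatment, a log2 change of -1.29 ± 0.56 (edgeR adjusted p = 0.604, DESeq2 adjusted p = 8.38e-04). Rpl39, which lines the exit tunnel, had -1.22 ± 1.03. Rpl3, at the peptidyl transferase centre, had 375 and 326 CPM in isotype libraries and 201, 263 and 446 under treatment, so treated replicate 3 was the highest library of this population. Its log2 change was -0.21 ± 0.32 and became 0.02 without treated replicate 1. In CD4 T cells estimates near 0 were those of Rpl28 (-0.02 ± 0.71) and Rpl29 (-0.10 ± 0.82).

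In PD-1-negative Tregs 11 members had estimates above 0 under treatment, against 0 in PD-1-positive Tregs and 2 in CD4 T cells, the low-count Rpl3l and Rps4l. In 2 members both treated libraries lay above both isotype libraries there. Rps13, 1 of them, stood at 108 and 95.1 CPM under treatment against 89.6 and 83.4 with isotype, a log2 change of 0.23 ± 0.50. The share of all genes in that order is not given here, so the count of 2 is not read as a result about the members.

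**Figure D4:**
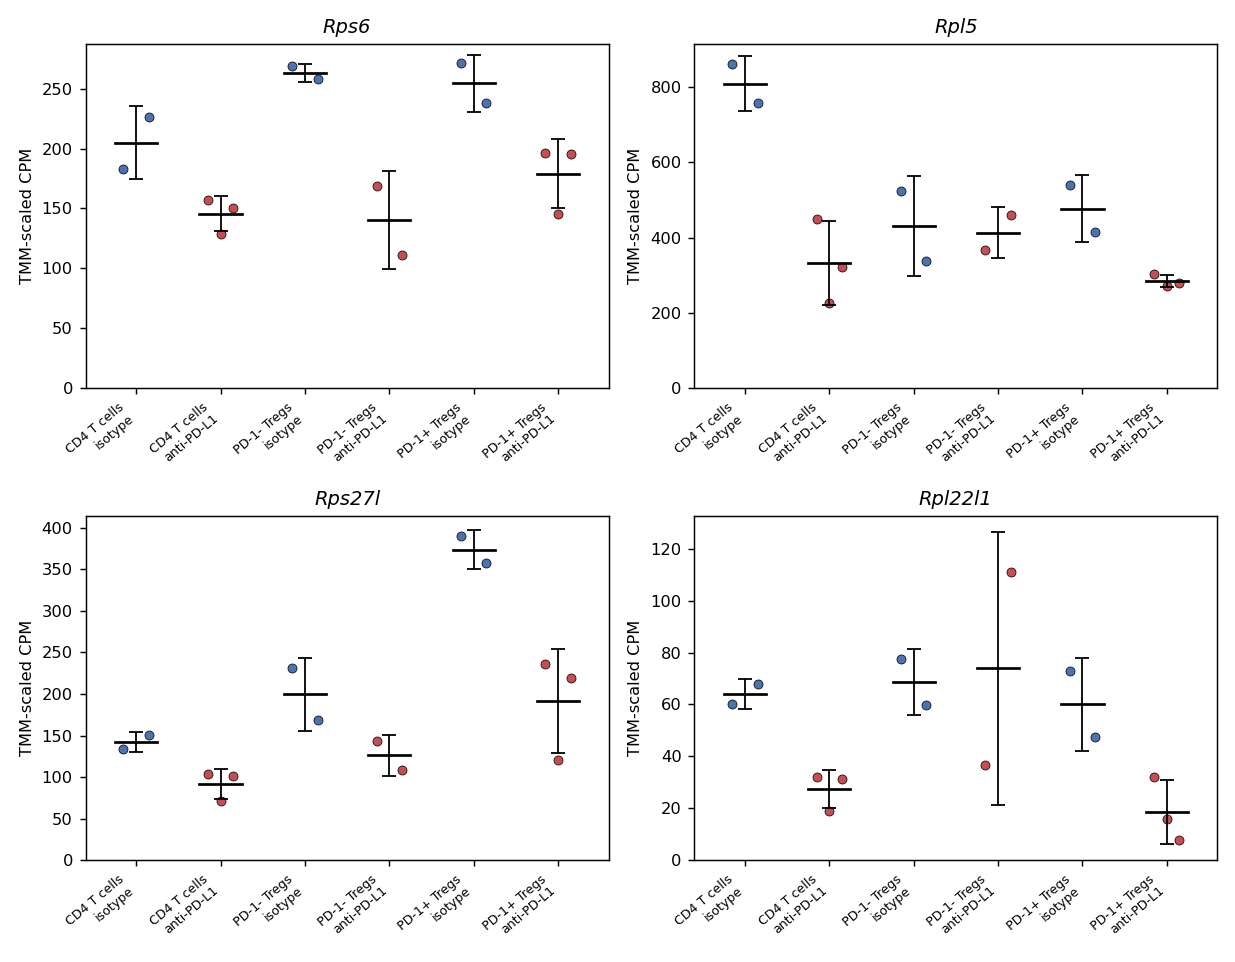
Level of 4 members in TMM-scaled CPM, 1 point per library, with group means (bars) and SD (whiskers); blue is isotype and red anti-PD-L1. Rps6 is lower in every treated group, Rpl5 is lower under treatment in CD4 T cells and PD-1-positive Tregs and overlaps in PD-1-negative Tregs, Rps27l is highest in PD-1-positive Tregs, and Rpl22l1 varies most between libraries.

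Between populations, over both treatments with equal weight, edgeR called 1 of 84 members lower in PD-1-positive against PD-1-negative Tregs, and 4.28% of all genes. This count changed with the processing. It was 0 with only the compared libraries or with a replicate block, and 2 with total counts only or RLE factors. Leaving out a library of a group of 2, or the 3 libraries with Y-linked counts, left 1 in a group. The calls of those fits are not read. Without those 3 libraries the median was -0.08, with 60 members lower, in PD-1-positive against PD-1-negative Tregs, -0.06 in PD-1-positive Tregs against CD4 T cells and 0.06 in PD-1-negative Tregs against CD4 T cells.

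Markers of other cell types and states differed between the populations as well. The 12 macrophage and monocyte markers summed to 465 to 956 CPM in PD-1-negative Tregs, where 2 of them were at 0 in each group and C1qa in all 4 libraries, to 3641 to 5679 CPM in PD-1-positive Tregs and to 2195 to 5417 CPM in CD4 T cells. By edgeR's test 8 of the 12 were higher in PD-1-positive than in PD-1-negative Tregs, and 6 were lower in PD-1-negative Tregs than in CD4 T cells, Lyz2 and Csf1r in both counts. The 12 markers of dendritic cells and MHC class II summed to 8879 to 15552 CPM in PD-1-negative Tregs, 19880 to 49764 CPM in PD-1-positive Tregs and 14967 to 28829 CPM in CD4 T cells. Of these, 6 were called higher in PD-1-positive than in PD-1-negative Tregs and 5 lower in PD-1-negative Tregs than in CD4 T cells, H2-Aa and H2-Eb1 in both counts. The 15 genes of resting and central T cells summed to 960 to 1528 CPM in PD-1-positive Tregs, 2835 to 4357 CPM in PD-1-negative Tregs and 2050 to 5249 CPM in CD4 T cells. In PD-1-positive Tregs 8 of these were called lower than in PD-1-negative Tregs, Tcf7 among them, and 4 lower than in CD4 T cells. Of the 7 B cell markers, 1, Cd22, was called, lower in PD-1-negative Tregs than in each of the others. Of the 13 tumour and stroma markers edgeR called 0, and 6 had an unadjusted p below 0.05 in each Treg population against CD4 T cells, all lower. The part of these markers in the population results was not tested.

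Of all members, 66 had a lower and 18 a higher estimate in PD-1-positive than in PD-1-negative Tregs, with a median of -0.20, against 0.42 for all genes. PD-1-negative Treg libraries held fewer genes with a count, as given above, and the part of that in both medians was not tested. At an unadjusted p below 0.05 there were 10 members, 9 lower and 1 higher, against 22.3% of all genes. DESeq2 called 9 lower and 1 higher (22.1% of all genes), and limma-voom 2 lower, Rpl4 among them (9.81%). The largest difference upward was that of Rps27l with 0.75 ± 0.26 (edgeR adjusted p = 0.112), then Rpl29 with 0.50 ± 0.61 and Rpl38 with 0.38 ± 0.25. Among the lowest were Rpl22l1 with -1.09 ± 0.64 and Rps27 with -0.63 ± 0.21, which DESeq2 called (adjusted p = 0.0199). Libraries overlapped in each of these genes. The median went to -0.05 without treated replicate 2 of PD-1-negative Tregs.

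PD-1-positive Tregs and CD4 T cells had nearly the same member levels. Their median log2 difference was 0.01, with 44 members higher and 40 lower in PD-1-positive Tregs, against -0.23 for all genes. edgeR called 0 members and 0.350% of all genes. At an unadjusted p below 0.05 there were 7 members (12.4% of all genes), 2 higher and 5 lower. DESeq2 called 2 higher and 1 lower (5.52%), and limma-voom 1 and 1 (4.25%). Rps27l was higher by 1.23 ± 0.25, with an edgeR adjusted p of 0.0653, and passed with DESeq2 (3.88e-05) and limma-voom (0.0205). It also passed with edgeR without treated replicate 2 of PD-1-positive Tregs (0.0226). In most of the 28 alternatives Rps27l did not pass. Its log2 difference ran from 1.11 to 1.35 over them, and its libraries overlapped. Others with large differences were Rps12 (0.66 ± 0.63), Rpl35a (0.48 ± 0.33), Rps27 (-0.52 ± 0.21) and Rpl5 (-0.49 ± 0.20), all with overlap.

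PD-1-negative Tregs had higher estimates than CD4 T cells for 70 members and lower ones for 14, with a median of 0.19, against -0.94 for all genes. edgeR called 0 members and 3.60% of all genes. At an unadjusted p below 0.05 there were 6 members (28.6% of all genes), DESeq2 called 9 higher (23.3%), and limma-voom called 2 higher, Rpl4 among them, and 1 lower, Rps4l (24.8%). The largest differences were those of Rpl22l1 (0.77 ± 0.64), Rps25 (0.67 ± 0.29) and Rpl26 (0.64 ± 0.28) upward and Rpl29 (-0.39 ± 0.61), Rpl5 (-0.30 ± 0.21) and Rps28 (-0.26 ± 0.43) downward, all with overlap. The median went to 0.04 without treated replicate 2 of PD-1-negative Tregs. The 3 population comparisons share libraries with each other.

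Among the paralogs, Rps27l, a p53 target gene on chr9:66944624-66949522 whose promoter window is shown above, stood at 391 and 357 CPM in isotype libraries and at 236, 120 and 219 under treatment in PD-1-positive Tregs. In PD-1-negative Tregs it stood at 231 and 169 CPM against 144 and 109, and in CD4 T cells at 134 and 151 CPM against 104, 70.9 and 101. Treated libraries were below isotype libraries in each population, and the PD-1+ isotype libraries were the highest of all. Its log2 changes under treatment were -0.63 ± 0.34, -0.66 ± 0.38 and -0.96 ± 0.34 in CD4 T cells, PD-1-negative Tregs and PD-1-positive Tregs, with edgeR adjusted p of 1, 0.352 and 0.595.

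Set against Rps27 within a library, Rps27l counts were 0.606 to 0.910 of Rps27 counts in the 5 PD-1-positive Treg libraries, 0.194 to 0.436 in the 4 PD-1-negative Treg libraries and 0.209 to 0.301 in the 5 CD4 T cell libraries. PD-1-positive Tregs did not overlap with either population. The log2 ratio was higher by 1.31 than in PD-1-negative Tregs (exact permutation test over libraries, two-sided p = 0.0159) and by 1.68 than in CD4 T cells (p = 0.00794, exact permutation test). These are the smallest p the designs allow, and both became 0.0714 after Benjamini-Hochberg adjustment over the 9 ratios tested (3 pairs of genes in 3 population comparisons, exact permutation tests). The counts of Rps27 carry the uncertainty over its copy Rps27rt, which is alike in all libraries.

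Rpl22l1 is the paralog of Rpl22, a protein whose loss is known to arrest the development of alpha beta T cells. Rpl22l1 in CD4 T cells stood at 60 and 68 CPM in isotype libraries and at 32.1, 18.9 and 31.3 under treatment. In PD-1-positive Tregs it stood at 72.8 and 47.4 CPM against 31.9, 16.0 and 7.99. Treated libraries were below isotype libraries in both. The log2 changes were -1.22 ± 0.85 (edgeR adjusted p = 1) and -1.69 ± 0.85 (edgeR adjusted p = 0.631). In PD-1-negative Tregs treated replicate 2 was the highest of all libraries at 111 CPM, and the groups overlapped.

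Rpl22 itself differed less, with -0.27 ± 0.62, -0.39 ± 0.69 and -0.52 ± 0.62 in CD4 T cells, PD-1-negative Tregs and PD-1-positive Tregs. The count ratio of Rpl22l1 to Rpl22 was 1.03 ± 0.00204 under isotype (SD, n = 2) and 0.527 ± 0.0688 under treatment (SD, n = 3) in CD4 T cells. It was 0.531 to 1.00 under isotype and 0.116 to 0.490 under treatment in PD-1-positive Tregs, and 0.656 to 1.06 against 0.436 to 2.29 in PD-1-negative Tregs. The groups were apart in CD4 T cells and PD-1-positive Tregs and overlapped in PD-1-negative Tregs. With 2 against 3 libraries no permutation test can reach 0.05, and none was made. Between populations the ratio had exact permutation p of 0.190 to 0.444, and that of Rpl7l1 to Rpl7 0.349 to 0.802.

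The 4 members with a mean under 5 RPKM had few counts. Rpl3l, known from muscle, had 86 counts in all, in 3 libraries. Rps4l, which RefSeq lists as a transcribed pseudogene and which is counted among the small subunit members, had 313 counts in 6 libraries. These were all 5 CD4 T cell libraries and 1 of PD-1-positive Tregs, and Rps4l was at 0 in PD-1-negative Tregs. Rpl39l, known from testis, had 668 counts in 10 libraries, at up to 12.4 CPM. Rpl32l had 2 to 13 counts in each library. Fold changes of these 4 are not read.

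Rpl36a, whose relative Rpl36al falls outside the symbol rule, had log2 changes of -0.47 ± 0.63, -0.25 ± 0.70 and -1.16 ± 0.63, the first and the last without overlap. Of other proteins of the ribosome with names outside the rule, Fau (Rps30) and Rack1 had -0.14 ± 0.33 and -0.20 ± 0.32 in CD4 T cells, both with overlap. In PD-1-positive Tregs they had -0.67 ± 0.33 and -0.96 ± 0.32, with every treated library below the isotype libraries. In PD-1-negative Tregs they had -0.10 ± 0.36 and -0.39 ± 0.35. Neither passed edgeR's test in any of these.

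Most lists of other translation genes also had medians below 0 under treatment, but few of their genes passed the test. Ribosome biogenesis genes (52 tested), the factors that process rRNA and assemble subunits, had medians of -0.35, -0.66 and -0.46 in CD4 T cells, PD-1-negative Tregs and PD-1-positive Tregs, with 45, 36 and 39 of 52 lower in that order. edgeR called 1 of them, Nmd3, the export adaptor of the large subunit, which fell by 2.49 ± 0.50 (log2) in PD-1-negative Tregs (edgeR adjusted p = 0.0207). Its levels there were 144 and 272 CPM in isotype libraries and 42.7 and 31.2 under treatment.

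Elongation factors and other mRNAs with the oligopyrimidine tract (12 tested) had medians of -0.22, -0.58 and -0.29 in the same order. edgeR called 1 of them, Eef1a1, which delivers tRNA to the ribosome. It fell by 0.77 ± 0.18 (log2) in PD-1-negative Tregs (edgeR adjusted p = 0.0460), from 1576 and 1617 CPM under isotype to 840 and 1039. Initiation factors (30 tested) had medians of -0.13, -0.20 and -0.28 and RNA polymerase I genes (14 tested) -0.15, -0.71 and -0.24. The list of mTORC1, S6 kinase and Myc genes (19 tested) had -0.04, 0.13 and 0.33, so its median was not below 0 in either Treg population. No gene of these 3 lists passed edgeR's test under treatment.

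Mitochondrial ribosomal proteins, made by a separate set of nuclear genes (78 tested), had medians of -0.15, -0.38 and -0.36, with 60, 46 and 63 of 78 lower and 0 called. Respiratory chain subunits (56 tested), short and abundant mRNAs like those of the ribosome, had -0.14, -0.27 and -0.39. Of these, edgeR called Atp5d in PD-1-negative Tregs, which rose by 2.11 ± 0.42 (log2, edgeR adjusted p = 0.0203). In CD4 T cells and PD-1-positive Tregs the medians of the members lay below those of each of these lists. In PD-1-negative Tregs the elongation, biogenesis and polymerase I lists had lower medians than the members.

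**Figure D5:**
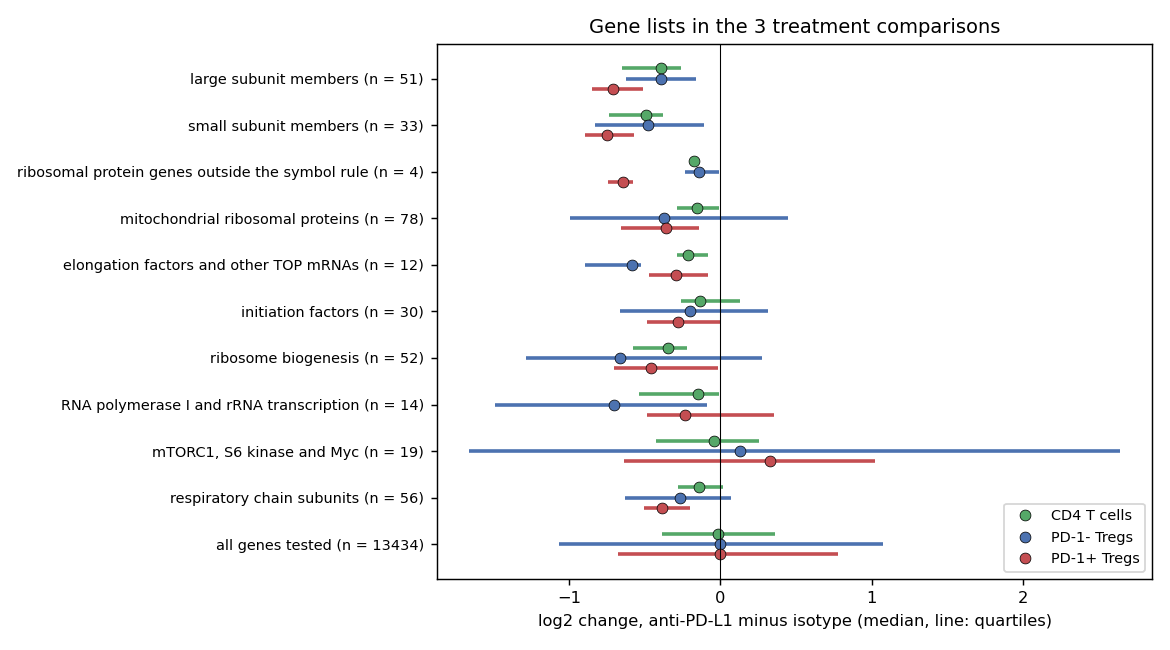
Median log2 change (anti-PD-L1 minus isotype, points) with the quartiles of each list (lines) for the members by subunit and for other gene lists, in 3 populations; n is the number of genes tested. The members by subunit lie at -0.39 to -0.75 and all genes tested at -0.01 to 0.00. The other lists run from -0.71, the polymerase I genes in PD-1-negative Tregs, to -0.04, apart from the mTORC1, S6 kinase and Myc list, which lies at 0.13 and 0.33 in the Treg populations.

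Markers of other cell types and states were also compared between treated and isotype libraries. edgeR called 0 of the B cell, the dendritic cell and MHC class II, and the tumour and stroma markers under treatment in any population. In each population at most 1 gene of any of these lists had an unadjusted p below 0.05, apart from B cell markers, with 3 lower in PD-1-positive Tregs and 1 higher and 1 lower in PD-1-negative Tregs. All 7 B cell markers tested had lower estimates in CD4 T cells (median -1.69) as well as in PD-1-positive Tregs (median -2.35). Their summed level was 210 to 229 CPM in isotype libraries and 46.5 to 90.0 under treatment in CD4 T cells, and 227 to 419 against 33.1 to 101 in PD-1-positive Tregs, where Ms4a1 and Ebf1 were at 0 in the treated libraries. In PD-1-negative Tregs it was 80.5 to 96.3 under isotype, with 3 of 7 at 0, Ebf1 and Cd22 among them, and 42.0 to 304 under treatment, with 4 of 7 at 0. Genes of resting and central T cells (15 tested) had medians of -0.91, -0.61 and -0.65 in CD4 T cells, PD-1-negative Tregs and PD-1-positive Tregs, with 14, 11 and 11 lower. By edgeR's test Bach2 fell in PD-1-negative Tregs, where both treated libraries were at 0 (adjusted p = 0.00794), and Igfbp4 fell in PD-1-positive Tregs (adjusted p = 0.00564).

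Of the 12 markers of dendritic cells and MHC class II, 11 and 10 had higher estimates under treatment in CD4 T cells and PD-1-positive Tregs, at 14967 to 20491 CPM against 18935 to 28829 and at 19880 to 34597 against 27516 to 49764. In PD-1-negative Tregs the sum was 14374 to 15552 CPM against 8879 to 11035. The 12 macrophage and monocyte markers summed to 3023 to 3632 against 2195 to 5417 CPM in CD4 T cells, 3656 to 5679 against 3641 to 4364 in PD-1-positive Tregs and 465 to 909 against 843 to 956 in PD-1-negative Tregs. edgeR called 1 of them, Mrc1, which fell in PD-1-negative Tregs, where both treated libraries were at 0 (adjusted p = 0.00204). The 13 markers of tumour and stroma summed to 1114 to 1464 against 292 to 787 CPM in CD4 T cells and overlapped in both Treg populations. Among single abundant transcripts, Actb took 3.54% of counts under isotype and 4.94% under treatment for CD4 T cells, 7.62% and 2.95% for PD-1-negative Tregs and 3.93% and 6.54% in PD-1-positive Tregs. The rRNA precursor Rn45s took 0.745% and 0.482%, 0.171% and 0.343%, and 0.232% and 0.115%. The part of these in the members' values was not tested.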

How the data were processed

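The deposited table holds raw read counts and RPKM values (reads scaled by gene length and library size) that the authors made for 25124 genes in 14 libraries, per the file headers. Alignment and counting tools listed in the submitters' processing notes are HOMER 3.12, SAMtools and HISAT2 2.0.4, with DESeq2 and the build mm10, in no stated role. The sources used here give neither the annotation nor the strand and counting settings. The deposited counts went into edgeR 4.0.16 under R 4.3.3. Of the genes, 13434 passed filterByExpr at a minimum count of 10. TMM scaling and the robust quasi-likelihood F-test followed, in 1 fit of 6 group means. P-values were adjusted by Benjamini-Hochberg over all genes tested in a comparison, with a threshold of 0.05. The SE of a log2 change was taken from its F statistic. Levels are CPM with TMM scaling, and RPKM served for levels between genes and as an alternative, as log2(RPKM + 1) and log2(RPKM + 0.1) in limma 3.58.1. DESeq2 1.42.0, limma-voom, other scalings, TMM without the members, no filter, the compared libraries only, replicate blocks and leaving out libraries were alternatives. The code was tested on simulated data.

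The genes named are a set list of functional members, the paralog pairs, the 3 highest and 3 lowest of each subunit by RPKM, and for each comparison up to 6 called genes in each direction or, with fewer than 6 called, the 3 largest and 3 smallest changes among members with at least 10 CPM in the higher arm; DESeq2 calls were added after their values were seen. Some genes the rule takes are not reported here. Members and lists were chosen with earlier results of these data known. Total counts of 10638848 to 15030804 set the precision, and amplified reads without molecular identifiers are not independent molecules.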

Additional observations from a re-analysis of the deposited data

Results flagged for a closer look

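The 3 libraries named here held counts of Y-linked genes although the labels give female mice. Y-linked genes are not among the ribosomal protein genes described, but these libraries enter the comparisons of them. The summed level of Ddx3y, Eif2s3y, Kdm5d and Uty was 208 CPM in treated replicate 3 of CD4 T cells, 250 CPM in treated replicate 2 of PD-1-negative Tregs and 285 CPM in treated replicate 3 of PD-1-positive Tregs. The other 11 libraries, all isotype libraries among them, had at most 0.0849 CPM. The 3 libraries share the number 3 in the brackets of their titles.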

How the results depend on the processing

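Member medians kept their sign in every treatment comparison and under all alternatives; 28 settings were run for each gene. DESeq2 called 1 member lower in CD4 T cells, 12 lower and 1 higher in PD-1-negative Tregs and 14 lower in PD-1-positive Tregs. It called 9 lower and 1 higher in PD-1-positive against PD-1-negative Tregs, 2 higher and 1 lower against CD4 T cells, 9 higher in PD-1-negative Tregs against CD4 T cells, and 4 and 2 in the interactions of PD-1-negative Tregs with PD-1-positive Tregs and with CD4 T cells. Limma-voom called 1 lower under treatment in PD-1-positive Tregs, 2 lower, 1 higher and 1 lower, and 2 higher and 1 lower in the 3 population comparisons in the same order. With library quality weights it called 10 lower under treatment in CD4 T cells, 0 in PD-1-positive against PD-1-negative Tregs, and 1 higher and 1 lower in PD-1-positive Tregs against CD4 T cells. The share of all genes called with these weights is not given here, so these counts are not read as a result about the members.

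Limma on log2(RPKM + 1) and log2(RPKM + 0.1) called 1 and 1 lower under treatment in PD-1-negative Tregs (medians -0.26 and -0.26), 5 and 3 in PD-1-positive Tregs, 2 and 3 lower in PD-1-positive against PD-1-negative Tregs, and 1 higher and 1 lower in each against CD4 T cells. The second called 1 lower in PD-1-negative Tregs against CD4 T cells and 1 higher in the interaction of the Treg populations. Shares of all genes called on the RPKM scale are not given here either, and these counts are not read in that way. The interaction medians were 0.60 and 0.60 between Treg populations and 0.18 and 0.18 between PD-1-negative Tregs and CD4 T cells. With total counts only these medians were 0.53, with 1 called, and 0.21, and 2 were called lower in PD-1-positive against PD-1-negative Tregs, as with RLE factors, and 1 against CD4 T cells. With only the compared libraries 0 were lower between Treg populations, 1 higher and 1 lower in PD-1-positive Tregs against CD4 T cells, and 1 lower in PD-1-negative Tregs against CD4 T cells.

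Without the libraries with Y-linked counts 1 treated library of PD-1-negative Tregs was left. The treatment median there was -0.63, and the interaction median of PD-1-negative Tregs with CD4 T cells was -0.14.

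Deviations of same-numbered libraries from their group means had a median correlation of 0.00401 (title numbers) and 0.00999 (bracket numbers), none above 0.1. In a group of 2 libraries the deviations mirror each other, so this check cannot decide whether libraries were paired. The main test fitted no pairing. The 3 libraries with Y-linked counts share bracket number 3, and whether that number marks a shared source was not tested. With a replicate block the treatment medians were -0.47 and -0.48 for CD4 T cells, -0.40 and -0.47 for PD-1-negative Tregs and -0.77 and -0.78 in PD-1-positive Tregs (title, then bracket numbers). The block left 0 called lower between Treg populations with either number. It gave Rpl28 0.0857 and 0.0595 under treatment in CD4 T cells.

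Leaving out 1 library at a time gave treatment medians of -0.61 to -0.29 for CD4 T cells and -0.62 to -0.26 for PD-1-negative Tregs. It gave -0.25 to -0.0478 in PD-1-positive against PD-1-negative Tregs and 0.0418 to 0.27 for PD-1-negative Tregs against CD4 T cells. Leaving out a library from a group of 2 leaves 1, so the calls of those fits are not read. Interaction medians ran from 0.14 to 0.57 between Treg populations, from -0.17 to 0.26 for PD-1-negative Tregs with CD4 T cells and from -0.44 to -0.12 for PD-1-positive Tregs with CD4 T cells. Genes near 0 crossed it: Rpl28 -0.15 to 0.0790 in CD4 T cells, Rps20 -0.0605 to 0.56 in PD-1-negative Tregs and Rpl3 -0.60 to 0.0163 in PD-1-positive Tregs. The cause of these differences was not tested. Low-count members, Rpl3l, Rpl32l, Rpl39l and Rps4l, carry no readable fold at this depth.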
